A study of Homo sapiens with 6 samples.

Results

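The comparison concerns where β-catenin lay on chromatin in human embryonic stem cells with and without CHIR99021 (CHIR), an inhibitor of the kinase GSK3. All peaks of the 2 deposited β-catenin lists were taken, 260 from cells in RPMI medium alone and 1053 from cells in RPMI with CHIR, 1313 of the 3126 peaks in the 3 lists of the series. A peak was called shared when it overlapped a peak of the other list by at least 1 bp, and otherwise CHIR only or RPMI only. By this rule 874 CHIR peaks were CHIR only, 79 RPMI peaks were RPMI only, and 182 overlapping pairs joined 179 CHIR peaks to 181 RPMI peaks.

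Both groups were SA121 cells, an embryonic stem cell line, grown in DEF-CS medium to confluence and then moved to RPMI for 6 h. The control group is labelled mock and had no inhibitor, and the other group had CHIR. Chromatin was precipitated with a goat antibody to β-catenin (R&D Systems AF1329) or with goat IgG (DAKO) as the background control, and DNA from 3 parallel ChIPs went into each library. There was thus 1 β-catenin library and 1 IgG library per condition from 1 cell line, no spread between replicates could be had, and no p-value is given. Intervals in brackets are exact 95% intervals that cover counting error only, and since reads carry no molecular identifiers they are narrower than the true error. Another condition, CHIR with SB431542 (CHIR+SB), an inhibitor of the activin and Nodal receptors, was used only to ask whether a peak was found again in other cells that also received CHIR. Peak lists hold no expression, so the labelled cell type was not checked.

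Without a Wnt signal, GSK3 marks β-catenin for degradation. When GSK3 is inhibited, β-catenin accumulates, enters the nucleus and binds the TCF/LEF factors, which hold the DNA. Its best known targets include feedback inhibitors of the pathway itself, such as AXIN2, and in embryonic stem cells the genes of the primitive streak and posterior embryo.

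At promoters, 1 sequence element was commoner with shared than with CHIR-only peaks, and commoner with both than in other promoters, so examples are shown first. Only promoter sequences were searched, and 16.8% of CHIR-only peaks lay within 1 kb of a gene start. The sequences are RefSeq's, from a table of 250 bases before to 50 bases after each gene start in GRCh38.p14. The peak lists use hg19, so a sequence is linked to a peak by gene name only, and a gene with several starts may have its peak at another of them. Each line runs 5′ to 3′ on the gene's own strand, with a match and 20 bases to either side where these lie before the start. The first group are promoters with peaks in both lists, among the highest of the shared class. Capitals mark a match to TCTCGCGA on either strand (TCGCGAGA when read from the other), and a full palindrome where both matches overlap.

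ERCC6L2: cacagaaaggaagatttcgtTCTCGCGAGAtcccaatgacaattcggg
ARF3: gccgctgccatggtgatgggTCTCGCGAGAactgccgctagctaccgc
BTBD10: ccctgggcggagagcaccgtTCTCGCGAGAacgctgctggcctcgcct
CDC5L: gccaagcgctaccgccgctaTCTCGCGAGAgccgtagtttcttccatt
DENR: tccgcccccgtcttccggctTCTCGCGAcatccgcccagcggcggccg
CDK12: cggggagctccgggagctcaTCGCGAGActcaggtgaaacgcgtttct
QRICH1: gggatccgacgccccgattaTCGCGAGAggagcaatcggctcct

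In GRCh38.p14 these stretches are ERCC6L2 chr9:95875579-95875626 (plus strand), ARF3 chr12:48957547-48957594 (minus), BTBD10 chr11:13463296-13463343 (minus), CDC5L chr6:44387488-44387535 (plus), DENR chr12:122752753-122752800 (plus), CDK12 chr17:39461313-39461360 (plus) and QRICH1 chr3:49094072-49094115 (minus). The match began between 24 bases (QRICH1) and 198 bases (CDC5L) before the start.

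The second group had promoter peaks in CHIR and none in RPMI, and carries the same letters. These were the 3 highest such peaks with the element.

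HNRNPH3: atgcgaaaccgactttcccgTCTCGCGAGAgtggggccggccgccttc
SCAMP5: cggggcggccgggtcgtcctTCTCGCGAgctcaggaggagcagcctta
NDUFA7: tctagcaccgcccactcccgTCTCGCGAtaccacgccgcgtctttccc

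The stretches are HNRNPH3 chr10:68331961-68332008 (plus), SCAMP5 chr15:74995417-74995464 (plus) and NDUFA7 chr19:8321416-8321463 (minus). The last group also had promoter peaks in CHIR only, and its capitals mark CTTTGAT, the core letters that TCF/LEF factors bind, or ATCAAAG where the core lies on the other strand.

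SP5: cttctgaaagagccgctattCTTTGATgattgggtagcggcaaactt
AMOTL2: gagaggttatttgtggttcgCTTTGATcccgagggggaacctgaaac
HAND1: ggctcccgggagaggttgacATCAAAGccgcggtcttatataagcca

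These lie at SP5 chr2:170715208-170715254 (plus), AMOTL2 chr3:134374522-134374568 (minus) and HAND1 chr5:154478247-154478293 (minus). The matches began 109, 101 and 46 bases before the start. The HAND1 peak was 103 bp wide with its centre 576.5 bp upstream, so at the same start it does not cover the match. It had 20 reads and a signal of 7.68, below the lowest RPMI signal of 9.61.

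The lists differed in the reads they hold and in the lowest count that entered them. The lists hold 6272 reads in peaks for RPMI and 39408 for CHIR, with 1294 and 4362 IgG reads in the same peaks. The authors' normalized signal is the read count times 1 factor per library, 0.641 in RPMI and 0.384 in CHIR. If libraries were scaled to a common depth, the CHIR β-catenin library was 1.67 times as deep as the RPMI one, and the IgG libraries were nearly equal (0.976). The lowest peak had 15 reads (signal 9.61) in RPMI and 20 reads (7.68) in CHIR. A signal of 9.61 corresponds to 25.03 CHIR reads, so CHIR peaks below that count could not have entered the RPMI list at the same signal.

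CHIR-only peaks at the 4 genes chosen to mark the response are described first. AXIN2, the scaffold of the β-catenin destruction complex and a feedback inhibitor of Wnt signalling, had 7 CHIR peaks with 330 reads in all, against 52 IgG reads. From upstream to downstream their signals were 27.6, 12.3, 12.3, 25.7, 23.4, 9.98 and 15.4, with IgG signals between 2.82 and 8.47. The outermost peaks lay 32.2 kb upstream and 66.4 kb downstream of the transcription start site (TSS), and 4 peaks lay within 1.22 kb of it. In hg19 the highest was chr17:63589622-63590221, upstream of the gene, with 72 reads and 10 IgG reads. At the RPMI scaling that signal equals 43.1 RPMI reads, well above the 15 that sufficed for a peak.

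SP5, a Wnt-induced zinc-finger repressor, had 1 CHIR peak, 205 bp upstream of its TSS (chr2:171571295-171572007). It had 85 reads against 7 IgG reads, a signal 6.61 times IgG (3.07 to 16.9). The printed SP5 promoter with CTTTGAT is that of this gene. CDX2, a caudal-type homeobox gene, held the highest CHIR-only peak, 3.08 kb downstream of its TSS within the gene (chr13:28539820-28541028). It held 177 reads against 12 IgG reads, 8.03 times IgG (4.48 to 15.8), over 1208 bp. It was the only CHIR-only peak among the 10 highest of the CHIR list. EVX1, a homeobox factor of the primitive streak, had 4 peaks within 2.85 kb of its TSS, with 98, 65, 20 and 25 reads from upstream to downstream. The first (chr7:27278947-27279671) was 4.85 times IgG (2.59 to 10.0), and the 2 lowest had 3 IgG reads each. None of these genes had an RPMI peak.

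**Figure D1:**
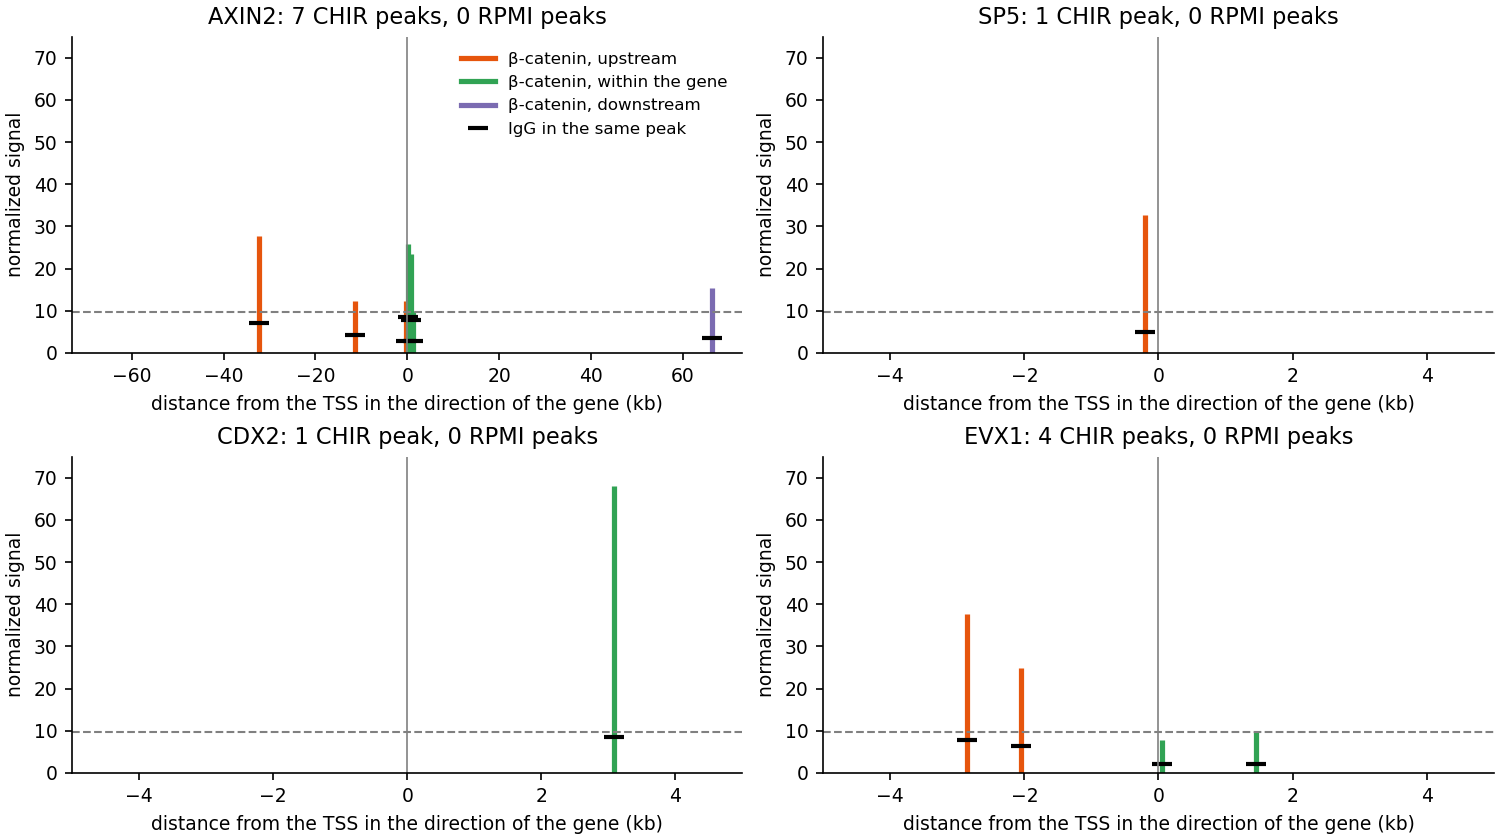
β-catenin peaks in CHIR around AXIN2, SP5, CDX2 and EVX1, as distance from the TSS (kb) in the direction of the gene against normalized signal. Bars are peaks, black marks are IgG in the same peak, the dashed line is the lowest signal of the RPMI list (9.61), and each gene has 0 RPMI peaks; the CDX2 peak reaches 68.0 and 2 of the 4 EVX1 peaks lie below the line.

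The classes differed in height. Among the 100 highest CHIR peaks, 58 were shared with RPMI and 42 were CHIR only, and among the 260 highest 114 were shared and 146 CHIR only. Median signal was 19.6 in shared peaks of the CHIR list (51 reads) and 11.1 in CHIR-only peaks (29 reads). Height is tied to how the classes were drawn. A shared site also had to enter the RPMI list, whose lowest signal was 9.61, and a CHIR-only peak did not. Of the 874 CHIR-only peaks, 576 (65.9%, 62.7 to 69.0%) had at least the lowest RPMI signal, 91 (10.4%, 8.47 to 12.6%) at least 2 times that signal and 21 (2.40%, 1.49 to 3.65%) at least 3 times. For the remaining peaks, below the lowest RPMI signal, absence from the RPMI list says nothing of a difference between the conditions.

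Signal is summed over a peak, and peaks differed in width. The median width was 525 bp for shared peaks in CHIR, 367 bp for the same sites in RPMI, 336.5 bp for CHIR-only peaks and 169 bp for RPMI-only peaks. Per kb of peak, the median signal was 39.3 in shared peaks and 35.9 in CHIR-only peaks of the CHIR list. Per kb, IgG signal was 8.76 and 7.51 in these classes. With 1 read added to both counts, the median of β-catenin over IgG was 3.81 in both classes of the CHIR list and 3.72 in both classes of the RPMI list. By this measure the classes of a list stood equally far above IgG.

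The classes also differed in position. Of CHIR-only peaks, 147 of 874 (16.8%, 14.4 to 19.5%) lay within 1 kb of the TSS of the gene the authors assigned, here called promoter peaks. A further 181 (20.7%) lay between 1 and 10 kb, 203 (23.2%) between 10 and 50 kb, 105 (12.0%) between 50 and 100 kb and 238 (27.2%) beyond 100 kb. Upstream of the gene lay 356, within it 285 and downstream 233; the lists do not say whether a peak within a gene is exonic or intronic. Shared peaks of the CHIR list were at promoters in 133 of 179 cases (74.3%, 67.2 to 80.5%), with a median distance of 109.5 bp against 27.3 kb for CHIR-only peaks. The 46 shared peaks away from promoters had a median signal of 16.7, above the 11.1 of CHIR-only peaks away from promoters.

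**Figure D2:**
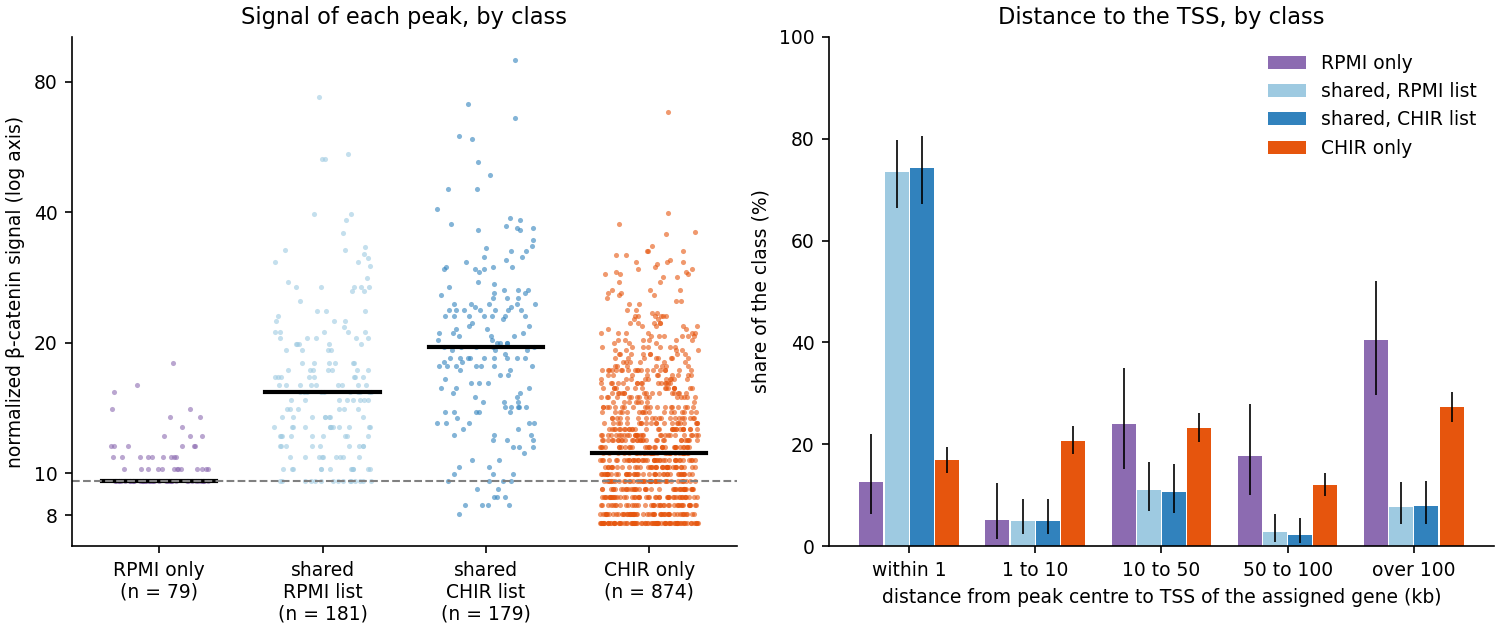
Left, normalized β-catenin signal of each peak (log axis) by class, with the median as a bar and the lowest RPMI signal (9.61) as a dashed line; right, share of each class (%) by distance of the peak centre from the TSS (kb), with exact 95% intervals. Shared peaks reach the highest signals and 74.3% of those in the CHIR list lie within 1 kb of a TSS, against 16.8% of CHIR-only peaks.

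Of the 10 highest CHIR-only peaks, those of CDX2, EVX1 and SP5 are given above. After CDX2 came TSPAN18, a tetraspanin, with 104 reads against 8 IgG reads 60.0 kb into the gene, and then EVX1. MLLT6, a chromatin factor gene, had 94 reads against 11 at 1.47 kb upstream. LINC01124, a non-coding RNA next to SP5, had 93 reads against 7. ZNF436, a zinc-finger gene, had 87 reads against 7. HOXB13, the most posterior HOXB gene, had 85 reads against 8 at 4.36 kb upstream. PTCH1, the Hedgehog receptor and itself a Hedgehog target, had 85 reads against 6 at 3.91 kb upstream. SLC2A1-DT, a transcript divergent from a glucose transporter gene, had 83 reads against 11. All 10, SP5 included, overlapped a CHIR+SB peak, and each had a signal worth at least 49.7 RPMI reads.

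CHIR-only peaks lay near 756 genes, of which 672 had 1 peak, 66 had 2 and 18 had 3 or more. After AXIN2, the genes with most peaks were MYO3B with 6, a myosin gene next to SP5, FOXB1 and RGMA with 5 each, and EVX1, PIM1, FZD7, AUTS2 and RBMS3 with 4 each. FOXB1, a forkhead factor, had 208 reads against 25 IgG reads and RGMA, a BMP co-receptor, 154 against 17. The MYO3B peaks lay between 36.6 and 502 kb from its TSS. All 5 FOXB1 peaks and all 4 FZD7 and AUTS2 peaks were found again in CHIR+SB, while 2 of 5 RGMA peaks and 2 of 4 PIM1 peaks were. PTCH1 had 3 peaks, with 148 reads against 13.

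Joined where gaps were at most 50 kb, the 874 peaks formed 781 stretches, of which 716 were single peaks, 49 held 2 peaks and 16 held 3 or more (60 peaks). The stretch with most peaks ran 61.1 kb from HOXA11 through HOTTIP to EVX1, at the posterior end of the HOXA cluster, with 7 peaks and 300 reads against 35 IgG reads. AXIN2 had 6 peaks in 33.8 kb. A stretch of 4 peaks ran through HOXB1 and HOXB3 to HOXB-AS3, and one of 3 through HOXD3 and HOXD1. PDX1, CDX2 and URAD shared 3 peaks in 54.1 kb with 228 reads against 17. MYO3B, LINC01124 and SP5 shared 3 peaks in 35.3 kb with 211 reads against 20. Others held OTX2 and its antisense gene OTX2-AS1 (4 peaks), PIM1 (4), FZD7 (4), EOMES (3) and WLS (3).

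The pathway's own genes were taken from lists written with earlier results of these data known. Such lists support no test and are given as counts beside all genes. A gene counted when the authors assigned it a peak within 50 kb of its TSS. Of 20056 protein-coding genes, 393 (1.96%) had such a CHIR-only peak, 152 (0.758%) a shared peak and 29 (0.145%) an RPMI-only peak. Genes differ in the length of sequence around them, which these shares do not take into account. Of the 267 genes in the 12 lists, 65 had a CHIR-only peak, 7 a shared peak and 1 an RPMI-only peak.

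Among Wnt feedback inhibitors and regulators, 6 of 14 had a CHIR-only peak and 0 a shared peak. After SP5 and AXIN2 the highest was DACT1, a Dishevelled antagonist, with 42 reads against 5 IgG reads. NOTUM, the enzyme that removes the lipid from Wnt proteins, had 29 against 4. SP8, a relative of SP5, had 28 against 5, and NKD1, another Dishevelled antagonist, 25 against 4. These last 3 lay at or below the CHIR-only median of 29 reads.

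Of 21 Wnt ligands and receptors, 6 had a CHIR-only peak. The receptor genes FZD7 and FZD10 had 58 reads against 5 and 40 against 6 at their highest peaks. The ligand gene WNT3, which acts at the onset of gastrulation, had 45 reads against 3 within the gene and 40 against 6 at 3.13 kb upstream. ROR1, a Wnt co-receptor, had 38 against 5, and WLS, which carries Wnt proteins to the cell surface, 35 against 4. WNT8A, a ligand of the early embryo, was the 1 member with a shared peak. The list is not complete: outside it, FZD2 and WNT10A also had shared peaks, with 17 and 51 reads and 23 and 55 reads in RPMI and CHIR. The shared WNT8A peak, 11.5 kb downstream (chr5:137430945-137431579), had 27 reads in RPMI (signal 17.3) and 64 in CHIR (24.6), with 4 and 1 IgG reads. A second WNT8A peak with 32 reads was CHIR only.

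Of 12 TCF/LEF factors and nuclear partners, TLE3, a co-repressor, had a CHIR-only peak of 50 reads against 3 at 684 bp upstream. TCF7, a TCF factor, had one of 45 reads against 5 at 43.4 kb upstream. BCL9, a β-catenin co-activator, had a shared peak within the gene with 18 reads in RPMI and 24 in CHIR, a signal of 11.5 and 9.22. Of 9 Wnt growth targets, 6 had a CHIR-only peak. These were the homeobox genes MSX1 (60 reads against 5) and MSX2 (28 against 6), AMOTL2, an inhibitor of YAP (45 against 7), the cyclin genes CCND1 (33 against 5) and CCND2 (25 against 3), and MYC, 7002 bp downstream (31 against 4).

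Of 38 CDX and HOX genes, 10 had a CHIR-only peak and 0 a shared one. Besides CDX2 and EVX1 they included CDX1, a relative of CDX2, with 74 reads against 6 at 148.5 bp upstream. HOXD13 had 39 reads, HOXB3 35, HOXD1 33, HOXA11 30, HOXD3 23 and HOXB1 21, with 2 to 6 IgG reads. This list is not complete either: HOXB13, whose CHIR-only peak is given above, is outside it. Among 21 primitive streak transcription factors, 7 had a CHIR-only peak and 0 a shared one. The mesendoderm T-box gene EOMES had 78 reads against 8 at 6.31 kb upstream, MIXL1, a homeobox factor of mesendoderm, 75 against 6 at 12.9 kb upstream, and GATA4, an endoderm factor, 69 against 7 within the gene. TBXT, the T-box factor that marks the streak, had 28 against 4, GSC 26 against 5 and HAND1 20 against 3. OTX2, a head homeobox gene, had 32 against 6.

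Of 26 genes of Nodal, FGF and BMP signalling, 9 had a CHIR-only peak and 0 a shared one. NODAL, the ligand that induces mesendoderm, had 62 reads against 1 IgG read at 13.8 kb upstream (chr10:72214914-72215541). FGF17 had 51 reads against 7 and FGF8, an FGF of the streak, 45 against 8. FOXH1, a partner of SMAD proteins, had 36 reads, CRIPTO, the Nodal co-receptor, 33 at 23.5 bp from its TSS, and ID3, a BMP target, 33. The FGF feedback genes SPRY4 and DUSP6 had 31 and 30 reads against 2 IgG reads each, and BMP4 had 27 against 3.

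Genes of the pluripotent state and of other lineages also had CHIR-only peaks. Of 22 pluripotency genes 5 did, led by POU5F1, the core pluripotency factor, with 68 reads against 10 at 1.40 kb upstream, and JARID2, a Polycomb partner, with 40 against 3. DPPA4, ZSCAN10 and VRTN had 34, 28 and 26 reads. Of 27 neurectoderm genes 8 did, led by GBX2, a homeobox gene of the neural plate, with 81 against 11 at 8.44 kb downstream, PAX7 with 44 against 8 and NKX6-1 with 43 against 7. EMX2, PAX2, OTX1, PAX3 and LHX2 had 20 to 29 reads. OTX1 also had the only RPMI-only peak among list members, with 15 reads. Of 14 Hippo pathway genes, TEAD1, a partner of YAP (55 against 8), and ANKRD1, a YAP target (35 against 7), had a CHIR-only peak. Of 28 genes of differentiated cells, COL2A1, a cartilage collagen, had 64 against 4, SERPINA1 29 against 0 and PDX1, in a stretch with CDX2, 24 against 2. The share was thus above that of all protein-coding genes in neurectoderm as well as in streak genes (29.6% and 33.3%).

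Genes of RNA processing and translation showed the other order. Of 35, 5 had a shared peak (14.3%, 4.81 to 30.3%) and 1 a CHIR-only peak, RPS14 at 11.9 kb upstream with 30 reads. The shared ones were the splicing factors RBM39 and CDC5L, the transcription kinase CDK12 and the ribosomal proteins RPL10A and RPS6, all at promoters.

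**Figure D3:**
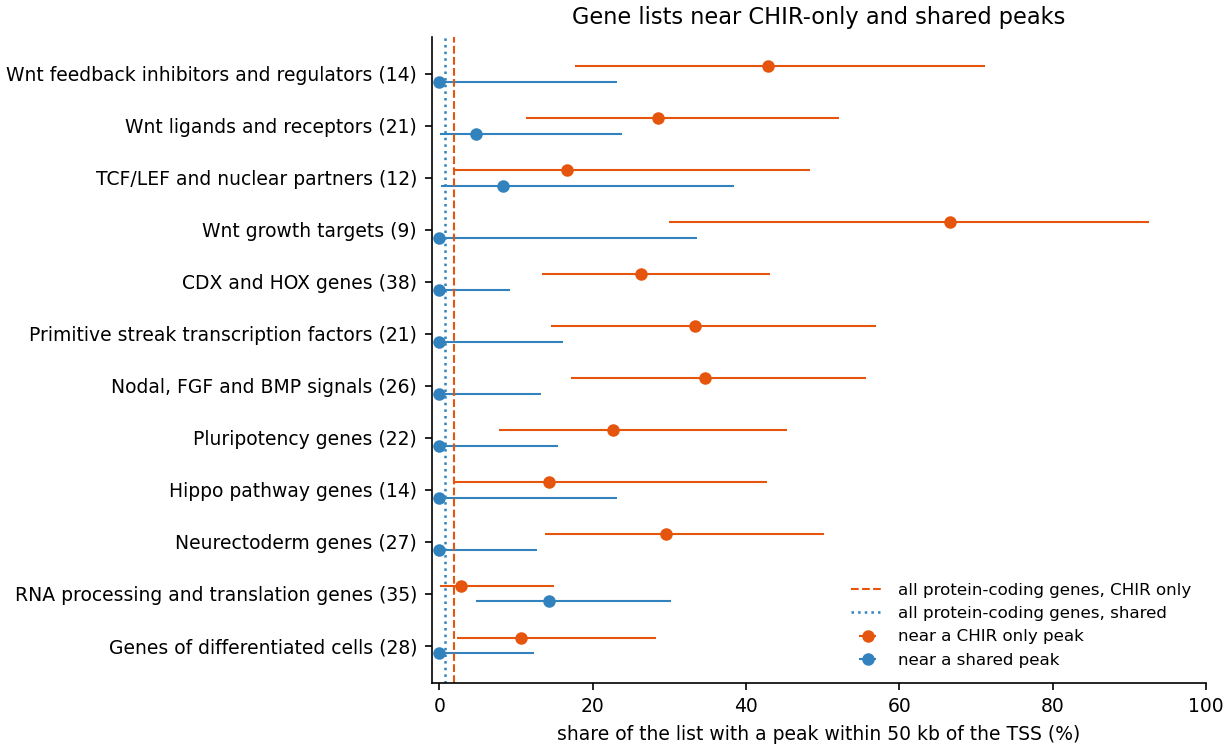
Share (%) of each gene list with a CHIR-only (orange) or shared (blue) peak within 50 kb of the TSS, with exact 95% intervals and the number of genes in brackets; vertical lines are all protein-coding genes (1.96% and 0.758%). All 12 lists lie to the right of the CHIR-only line, and only the RNA processing and translation list has a higher shared (14.3%) than CHIR-only share (2.86%).

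The highest shared peaks are given next by gene. At RBM39 (chr20:34329845-34330753 in the CHIR list), RPMI had 115 reads and CHIR 234, a signal of 73.7 and 89.9, with IgG signals of 10.3 and 11.3. ERCC6L2, a DNA repair helicase gene, had 83 and 185 reads (signals 53.2 and 71.0). ASXL1, a Polycomb-related gene, had 60 and 154 reads (38.5 and 59.1), and QRICH1 51 and 118 (32.7 and 45.3). CDK12 had 85 and 136 reads, a signal of 54.5 in RPMI and 52.2 in CHIR. DENR, a translation re-initiation factor, ARF3, a small GTPase, and BTBD10 had 156, 127 and 106 reads in CHIR. Of the 10 highest shared peaks only that assigned to DYNC1H1, the dynein heavy chain, lay away from a promoter, 16.4 kb upstream, with 118 reads in CHIR.

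At 174 sites 1 RPMI peak met 1 CHIR peak. The ratio of CHIR to RPMI signal had a median of 1.23 (1.11 to 1.30) and was above 1 at 123 sites. At least 1.5 times higher were 37 sites (21.3%) and at least 1.5 times lower 3 (1.72%). A site entered only if both lists held it, with signals of at least 9.61 in RPMI and 7.68 in CHIR. A site near the lowest RPMI signal could therefore be 1.5 times higher in CHIR but not 1.5 times lower. The 2 counts are thus limited unequally by the lists. The median CHIR peak was 1.36 times wider than its RPMI partner, and per kb of peak the ratio was 0.894 (0.842 to 0.952). At the 59 sites where both peaks were of like width, it was 1.02 (0.929 to 1.09). A higher signal at shared sites in CHIR was therefore seen only when each peak was counted over its own width. Peak width can itself move with depth, and the parts of depth and treatment in it cannot be told apart.

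The interval of the ratio lay above 1 at 28 sites and below 1 at 1. The highest ratio was at a site the authors assigned to KCNJ2, a potassium channel gene, 863 kb away, where reads went from 20 to 98 (2.94 times, 1.80 to 5.02). The CHIR peak was 2.35 times as wide, and per kb the ratio was 1.252. At ADD3, a membrane skeleton gene, 161 kb away, reads went from 16 to 77 (2.88 times, 1.67 to 5.30), with a CHIR peak 7.24 times as wide and a ratio per kb of 0.398. MIR4643 followed with 15 and 62 reads, SUPT5H, a transcription elongation factor, with 17 and 69 at its promoter, and MYEF2 with 18 and 70 at its promoter. Per kb these were 0.508, 0.668 and 1.19. The 5 sites with the highest ratios had 15 to 20 RPMI reads, at or near the lowest count of that list, 15. The 1 site with its interval below 1 was ZCCHC14, 1199 bp upstream, with 28 reads in RPMI and 22 in CHIR (0.471 times, 0.257 to 0.853). There the CHIR peak was 0.430 times as wide and the ratio per kb 1.09. Promoter sites (130) had a median ratio of 1.21 (1.09 to 1.29) and the 44 others 1.29 (0.959 to 1.42), ranges that overlap. Genes with both a CHIR-only and a shared peak numbered 7: ADD3, ASXL1, CSMD1, FZD2, MIR4643, PLAGL1 and WNT8A.

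**Figure D4:**
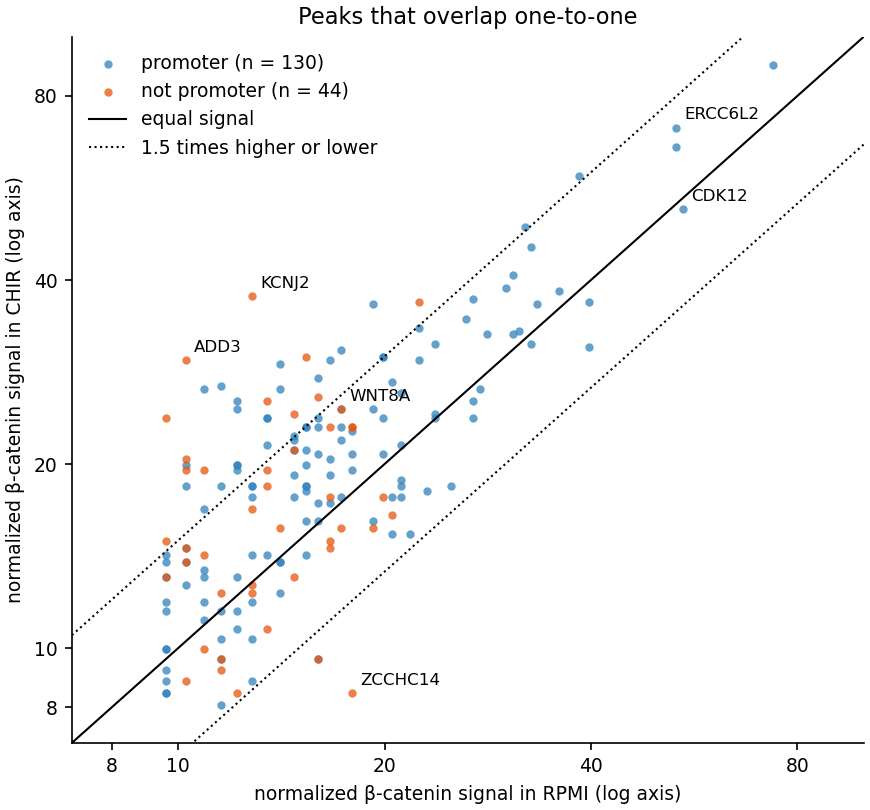
Normalized β-catenin signal in RPMI and CHIR (log axes) at 174 sites where 1 peak met 1 peak, at promoters (blue) and elsewhere (orange); the solid line is equal signal and dotted lines are 1.5 times higher or lower. Above the upper line lie 37 sites and below the lower line 3, and among the highest promoters CDK12 lies near equality and ERCC6L2 above it.

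The 79 RPMI-only peaks were low and narrow. Of these, 40 (50.6%, 39.1 to 62.1%) had the lowest count of the list, 15 reads, against 15 of 181 shared peaks (8.29%, 4.71 to 13.3%). They lay at promoters in 10 cases (12.7%, 6.24 to 22.0%), beyond 100 kb from the TSS in 32 (40.5%), and at least 10.3 kb from any CHIR peak. The promoter share depended on the peaks taken. It was 35.4% of 144 RPMI-only peaks when the 260 highest peaks of each list were matched. For peaks at or above each list's median it was 50% of 14. CHIR-only shares were then 17.8% and 20.9%. Both sets of RPMI-only peaks include peaks that overlap a CHIR peak left out by the cut, so these shares do not describe the 79. The highest of the 79 was at the promoter of LAMP1, a lysosomal membrane protein gene, with 28 reads against 8 IgG reads (chr13:113951488-113951727). NBPF15, of a repeated gene family whose copies share reads, had 25 against 10. PRIM2, a DNA primase subunit gene, had 24 against 6. POLDIP3 and SRRT, both of RNA metabolism, had 22 against 5 each at their promoters, and WDR6 had 21 against 7. CBLN2, DDAH1, PRLR and EDIL3 had 19 to 21 reads between 21.4 and 278 kb from their TSS. No gene of the Wnt lists was among them.

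The classes differed in how often they were found again in CHIR+SB. CHIR+SB peaks overlapped 152 of 179 shared CHIR peaks (84.9%, 78.8 to 89.8%), 515 of 874 CHIR-only peaks (58.9%, 55.6 to 62.2%) and 6 of 79 RPMI-only peaks (7.59%, 2.84 to 15.8%). With the lowest RPMI signal required of both lists, 72.2% of the 576 remaining CHIR-only peaks were found again. All 79 RPMI-only peaks met that minimum already. The class then grew to 93 by RPMI peaks that overlap a CHIR peak below the minimum, and 20.4% of the 93 were found again. CHIR-only peaks away from promoters were found again in 446 of 727 cases (61.3%, 57.7 to 64.9%) and those at promoters in 69 of 147 (46.9%, 38.7 to 55.3%). Over IgG, the CHIR-only promoter peaks had a median of 3.36 against 3.81 for those elsewhere, and their IgG signal was 2.82 against 2.12. The part of IgG background in this difference was not tested. By name, 6 of 7 AXIN2 peaks, the SP5 and CDX2 peaks and 2 of 4 EVX1 peaks were found again.

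The letters TCTCGCGA, printed above, set shared promoters apart from other promoters. This palindromic element with CpG dinucleotides is known as the binding site of BANP, a factor of housekeeping promoters. It was found in 102 of 161 promoter sequences of genes with a shared promoter peak (63.4%, 55.4 to 70.8%), in 44 of 177 with a CHIR-only one (24.9%, 18.7 to 31.9%) and in 6 of 9 with an RPMI-only one. Of 22199 promoter sequences of protein-coding genes it was in 351 (1.58%, 1.42 to 1.75%), and of all 35116 in the table in 1.15%. Counted once per gene, the shares were 92 of 115 (80%), 42 of 115 (36.5%) and 2.04% of 15843 protein-coding genes. Of the 20 highest shared promoter peaks with a sequence, 19 had it, and ASXL1 did not. In shared promoters the match began a median of 63 bases before the start (quartiles 46.2 and 100.2), and in all promoters with it, 72 bases before. Promoter peaks of the CHIR list had a median TSS distance of 70.5 bp when shared and 166 bp when CHIR only. Among CHIR-only ones the median was 86.75 bp with the element and 311 bp without it. For peaks beyond the bases searched, the sequence under the peak was not read, which limits the comparison of the classes.

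Read the other way, the element marked out promoters with a peak. Of 15843 protein-coding genes with a promoter sequence, 211 (1.33%) had a promoter peak in CHIR. Among the 323 with the element, 94 (29.1%, 24.2 to 34.4%) had a promoter peak in RPMI and 128 (39.6%, 34.3 to 45.2%) in CHIR. Among the 15520 without it, 21 (0.135%) and 83 (0.535%) had one. The difference in share between promoters with and without the element was thus seen in both media.

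The core of TCF/LEF, CTTTGAT on either strand, showed no such pattern at promoters. It was in 5 of 177 CHIR-only promoter sequences (2.82%, 0.923 to 6.47%), 4 of 161 shared ones (2.48%, 0.681 to 6.24%) and 1.98% of those of protein-coding genes. The 5 genes were SP5, AMOTL2, HAND1, RBPJ, the effector of Notch signalling, and OTX2-AS1. The RBPJ sequence (chr4:26163334-26163380 in GRCh38.p14) lies far from its peak (chr4:26322496-26322929 in hg19), so it is most likely that of another start. The HAND1 and OTX2-AS1 peaks, each 103 bp wide, had centres 576.5 and 849.5 bp upstream, beyond the 250 bases searched. The shorter CTTTGA, which lies inside CTTTGAT, was in 13.6% of CHIR-only, 10.6% of shared and 10.9% of protein-coding promoter sequences. Of the other motifs, none came near the difference seen for TCTCGCGA. They were the ETS motif CCGGAAGT (7.91% CHIR only, 9.94% shared, 5.34% protein-coding, with a shared interval of 5.79 to 15.6% that lies above the last), the TEAD motif GGAATG (7.91, 9.32 and 12.2%), CCAAT (32.8, 29.2 and 34.7%) and the GC box GGGCGG (63.3, 61.5 and 56.3%). The NRF1 motif TGCGCATG, the CRE TGACGTCA and the octamer ATGCAAAT were each in fewer than 4% of either class. Most CHIR-only peaks lie away from promoters, and their sequence was not analysed here.

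**Figure D5:**
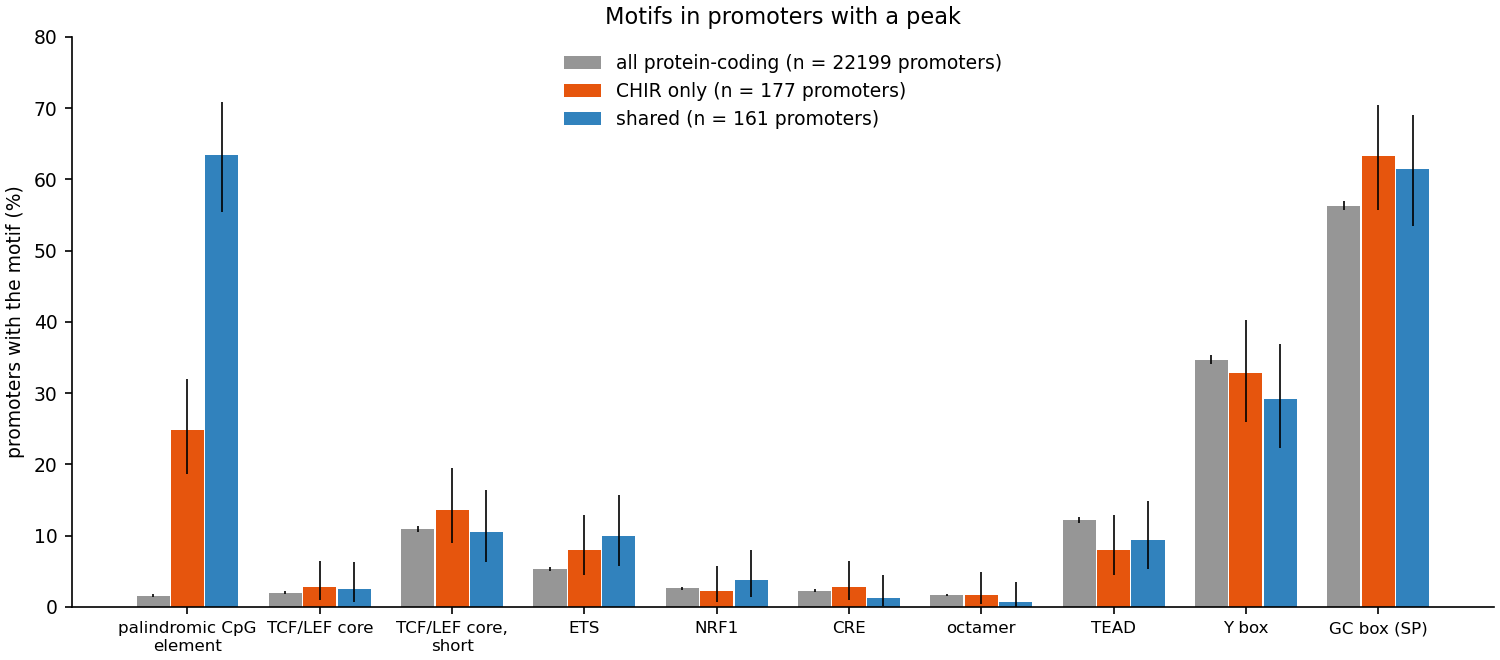
Share (%) of promoter sequences with each of 10 motifs on either strand, for all protein-coding genes (grey), genes with a CHIR-only promoter peak (orange) and genes with a shared one (blue), with exact 95% intervals. The palindromic CpG element is in 63.4% of shared and 24.9% of CHIR-only promoters against 1.58% of all, while the TCF/LEF core is between 1.98% and 2.82% in each group.

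Promoter peaks with and without the element differed little in signal in the CHIR list and more in the RPMI list. Shared CHIR peaks had a median signal of 20.4 with it (92) and 19.6 without it (23), with IgG signals of 4.94 and 4.23 and medians over IgG of 3.51 and 3.58. In the RPMI list the medians were 16.02 and 12.82. CHIR-only promoter peaks had 10.9 with it (42) and 11.3 without it (74), and 64.3% and 63.5% of them had at least the lowest RPMI signal. The ratio of CHIR to RPMI signal was 1.17 (1.06 to 1.30, 89 sites) with the element and 1.36 (1.04 to 1.498, 23 sites) without it, ranges that overlap. In CHIR+SB, 80 of 92 shared peaks with the element and 18 of 23 without it were found again.

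The highest CHIR-only promoter peaks included genes with the element and genes without it. SP5, without it, came first, followed by HNRNPH3, an RNA-binding protein gene with the element (79 reads against 5 IgG reads), CDX1 (74 against 6), LINC01101, without it (68 against 7), and AXIN2 (67 against 12). CDX1 and AXIN2 were not matched to a promoter sequence and are in neither group. SCAMP5, a secretory membrane protein gene with the element, had 61 against 7, and NDUFA7, a gene of respiratory complex I with the element, 55 against 3. LINC00261, a non-coding RNA next to FOXA2, without it, had 60 against 5.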

How the data were processed

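ChIP-seq was done in SA121 cells, per the labels' protocols on a Genome Analyzer II with DNA of 3 parallel ChIPs pooled per library. Bowtie is the aligner named, and hg19 and mm9 the builds, per the submitters' processing notes. Not given in the sources used here are the peak caller, its thresholds and the total depth. The authors deposited 1 peak list per β-catenin library with read counts in each peak for β-catenin and IgG. The deposited normalized signal, ratio and score columns are written with decimal commas, which were read as points, and the normalized signal equals the count times 1 factor per library. Peak coordinates are copied unchanged from the lists. The IgG peaks and the inhibitor doses were not analysed here, the latter because their unit could not be checked.

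Peaks were matched at 1 bp of overlap. Promoter peaks had their centre within 1 kb of the assigned TSS. Medians over IgG had 1 read added to both counts. Ratios and shares carry exact 95% intervals (conditional binomial and Clopper-Pearson), and medians an exact interval from order statistics. Names were matched to a RefSeq table (GRCh38.p14, names only): 100% in RPMI, and 99.2% in CHIR, with 8 unmatched. Work was done in Python 3.11.15 with numpy 2.4.6, pandas 2.3.3, scipy 1.17.1 and matplotlib 3.10.9, and the matching and intervals were tested on simulated data.

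Named genes were the 10 highest peaks of each class, the 5 highest and lowest ratios with intervals excluding 1 (only 1 was low), the 10 genes with most CHIR-only peaks or reads, AXIN2, SP5, CDX2 and EVX1, and list members with a peak within 50 kb; a few that the rule names are not reported here. Named after their values were seen were HNRNPH3, SCAMP5, NDUFA7, LINC01101, LINC00261, RBPJ, OTX2-AS1, the genes of stretches of peaks and the 7 with both kinds of peak. The members and gene lists were chosen with earlier results of these data known. Alternatives were signal minimum, number of peaks, overlap rule, promoter distance, width, IgG measure, list distance and promoter window. Counting motifs once per gene was added after seeing the data.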

Additional observations from a re-analysis of the deposited data

How the results depend on the processing

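No paired analysis was possible because each condition had 1 β-catenin library and the labels give no replicate numbers, so leaving out a replicate was not possible either. Of 128 alternatives, 95 left the value within its interval (counts within 1.5 times), 32 moved it and 1 turned its direction. Numbers of peaks depended on the signal required. With the lowest RPMI signal as a common minimum, 576 CHIR-only peaks remained. With the 260 highest peaks of each list, 146 were CHIR only, 114 and 116 shared (CHIR and RPMI list) and 144 RPMI only. At or above each list's median, 430 were CHIR only and 14 RPMI only. In both settings the RPMI-only class includes peaks that overlap a CHIR peak left out by the cut. The promoter share then was 35.4% of RPMI-only and 80.7% of shared CHIR peaks (260 highest), and 50% of RPMI-only and 20.9% of CHIR-only peaks (above the median). With promoters within 0.5 or 5 kb, it was 13.0% or 29.9% of CHIR-only peaks. The median ratio at one-to-one sites turned from above to below 1 per kb, at 0.894 (0.842 to 0.952), and was 1.02 at like widths. Summed rather than median signals over IgG were 4.45 (RPMI only), 4.53 and 4.89 (shared, RPMI and CHIR list) and 4.92 (CHIR only). List members with an RPMI-only peak numbered 0 within 10 kb and 2 with the common minimum. Recovery in CHIR+SB with that minimum was 72.2% of CHIR-only peaks and 20.4% of 93 RPMI-only peaks. These 93 include RPMI peaks that overlap a CHIR peak below the minimum. Counted per gene, TCTCGCGA was in 36.5% of CHIR-only, 80% of shared and 2.04% of all protein-coding promoters, and CTTTGAT in 2.61% of the last. In the 250 bases before the start alone, TCTCGCGA was in 1.42% and CTTTGAT in 1.78% of protein-coding promoters. A CHIR peak below 25.03 reads has a signal lower than that of any RPMI peak listed, which limits the CHIR-only class.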

Other observations

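Some CHIR-only promoter peaks lay at genes outside the lists, and those given here were chosen after their values were seen. MIR302B, in the microRNA cluster typical of embryonic stem cells, was the assigned gene of a peak with 33 reads against 4 IgG reads. MIR135B was that of a peak with 42 reads against 8. Chromatin genes with a CHIR-only promoter peak included MACROH2A1, a histone variant (55 against 5), REST, a repressor of neuronal genes (36 against 6), SMARCA5, a nucleosome remodeller (35 against 3), and TET2, which oxidises methylcytosine (32 against 4). The promoter of BANP, the factor known for the TCTCGCGA element, had a shared peak with 25 reads in RPMI and 72 in CHIR, 1.73 times as high (1.08 to 2.84) and 1.22 times per kb, with 9 and 12 IgG reads.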
